A study of Homo sapiens with 6 samples.

Results

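The 8 genes described here encode the regulators of the antioxidant response that were chosen by name: NFE2L1, NFE2L2 and NFE2L3, KEAP1, BACH1, MAFF, MAFG and MAFK. All 8 are listed in both deposited tables, among 60419 genes, and all 8 were tested. They were followed in 12Z, an established human cell line derived from endometriosis, in which tissue of endometrial type grows outside the uterus; the genotype is given as wild type. Cells in medium with 10% charcoal-stripped serum received an extract of myrrh, a tree resin, at 100 µg/mL in DMSO for 12 h (the group called Myrrh here) or DMSO alone as vehicle (the group called DMSO). Each group had 3 libraries of total RNA, with 22454783 to 27588151 estimated gene counts per library, and the question was which genes change with the extract. Whether each library came from its own culture is not stated in the labels, and the spread behind each p-value may therefore be technical.

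NFE2L2 encodes NRF2, a basic leucine zipper transcription factor of the cap'n'collar (CNC) family. In unstressed cells the adaptor KEAP1 brings NRF2 to a CUL3 ubiquitin ligase and it is degraded; electrophiles and oxidants modify KEAP1, and NRF2 then accumulates without any need for new mRNA. CNC factors bind DNA only as partners of the small MAF proteins MAFF, MAFG and MAFK, which have no activation domain of their own, at the antioxidant response element. BACH1 takes the same partners to the same elements and represses, until heme or oxidants release it. NFE2L1 encodes NRF1, which sits in the membrane of the endoplasmic reticulum and drives proteasome genes when proteasome activity is short, and NFE2L3 encodes the related factor NRF3. RNA levels bear on the supply of these proteins and not on their activity.

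Among the CNC factors, NFE2L2 and NFE2L1 rose in Myrrh while NFE2L3 fell. The small MAF genes MAFF and MAFG rose most of the 8, MAFK rose less, the repressor gene BACH1 rose about as much as NFE2L1, and KEAP1 changed least. All 8 genes passed an adjusted p of 0.05 (edgeR, quasi-likelihood, adjusted by Benjamini-Hochberg over 16395 genes), 7 higher and 1 lower in Myrrh. That is to be read against all genes tested, of which 78.4% passed, 39.3% higher and 39.1% lower. A change of at least 2-fold was also reached by 3 of the 8 upward, against 11.3% of all genes, and by 1 downward, against 18%. Tested for a log2 change beyond 0.5, 6 of the 8 were called (not KEAP1 and MAFK), against 45.6% of all genes. The median log2 fold change of the 8 was 0.92, beside -0.02 over all genes tested. Because the 8 were chosen with earlier results of these data known, these comparisons with all genes are descriptions and not tests. In RNA of a whole culture, a change in the number of expressing cells and a change in RNA per cell cannot be told apart.

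**Figure D1:**
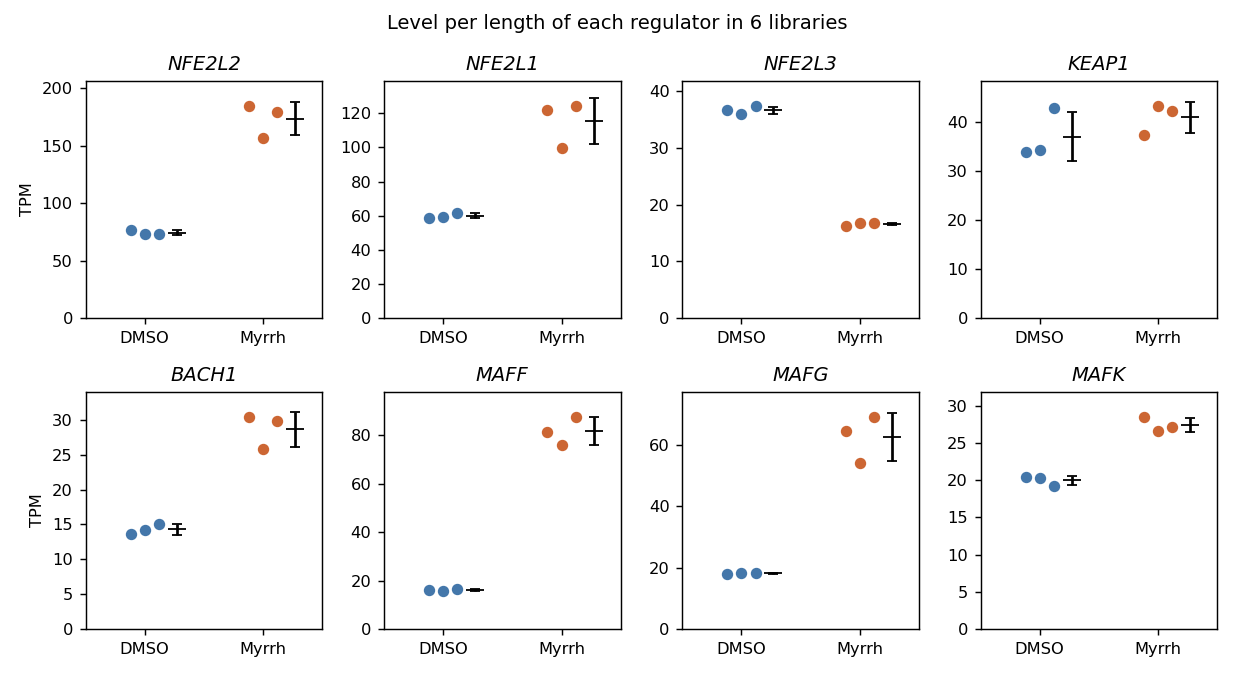
Level per length (TPM, vertical axis, starting at 0 in each panel) of the 8 regulators in the 3 DMSO and 3 Myrrh libraries; each point is a library, and the bar beside them is the mean with its SD. The Myrrh points lie apart from the DMSO points in every panel but that of KEAP1, and only NFE2L3 is lower in Myrrh.

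Levels are given as TPM, a transcript number scaled to gene length and library size, which can be compared between genes. NFE2L2 was the highest of the 8 in both groups. Its level in the DMSO libraries was 76.7, 73.2 and 73.5 TPM, and in the Myrrh libraries it was 184, 157 and 179 TPM. The groups did not overlap, and the second Myrrh library was the lowest of its group. In counts scaled to library size (CPM), NFE2L2 went from 115 ± 2.96 to 281 ± 12.6 (SD, n = 3), a log2 fold change of 1.29 ± 0.05 (SE; 95% interval 1.18 to 1.40), with an adjusted p of 1.89e-17 by edgeR. Of all genes tested, 6.53% had a higher log2 fold change.

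NFE2L1, the gene of NRF1, stood at 58.8, 59.5 and 61.5 TPM in DMSO and at 122, 99.8 and 124 TPM in Myrrh. The second Myrrh library was again the lowest of its group, and all 3 lay above the DMSO libraries. The log2 fold change was 0.89 ± 0.06 (SE; 95% interval 0.77 to 1.01), with an adjusted p of 1.78e-13 by edgeR. NFE2L3 moved the other way, from 36.6, 36 and 37.3 TPM in DMSO to 16.3, 16.7 and 16.7 TPM in Myrrh. The Myrrh libraries were close to each other and all lower than any DMSO library. NFE2L3 fell by 1.24 ± 0.06 on the log2 scale (SE), 2.36-fold, with an adjusted p of 3.7e-16 by edgeR, and 14.1% of tested genes had a lower log2 fold change.

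The summed TPM of the 3 CNC genes was 169 to 172 in DMSO and 274 to 322 in Myrrh. Within that sum NFE2L2 made up 42.7% to 44.6% in DMSO and 56% to 57.4% in Myrrh. The share of NFE2L3 went from 21.3% to 21.7% down to 5.05% to 6.11%, while that of NFE2L1 went from 34.2% to 35.7% to 36.5% to 38.8%. None of these ranges overlapped between the groups, and the rise of the sum was thus carried by NFE2L2 and NFE2L1. NFE2, the blood cell member of the family, was low in DMSO at 1.59 ± 0.12 TPM and lower in Myrrh at 0.177 ± 0.146 TPM (n = 3), a log2 fold change of -3.32 ± 0.38 (SE); it was picked out after its values were seen. NFE2 had 157 counts over all libraries, and its value was -3.92 without the first Myrrh library, -2.89 without the third and -1.14 on log2(TPM + 1).

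**Figure D2:**
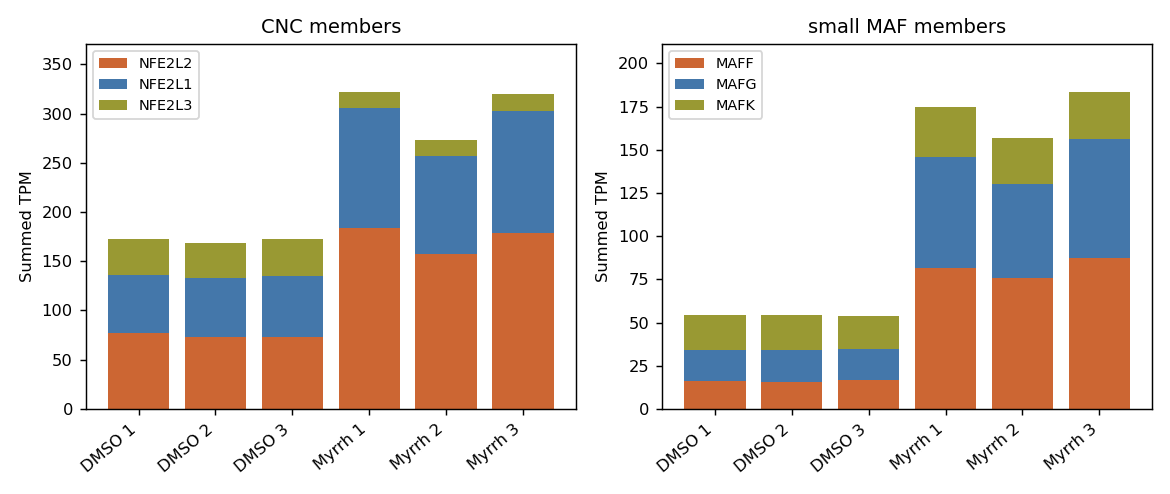
Summed TPM (vertical axis) of the 3 CNC genes and of the 3 small MAF genes in each library, with each gene's part in colour. The small MAF sum is 54 to 54.6 TPM in DMSO and 157 to 184 TPM in Myrrh, and the part of MAFK in it narrows.

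The small MAF genes had nearly the same level per length in DMSO and parted in Myrrh. MAFF, which is known as an inducible member of the group, was at 16.2, 15.6 and 16.5 TPM in DMSO and at 81.4, 76.0 and 87.5 TPM in Myrrh. No library of one group came near the other. Its log2 fold change of 2.31 ± 0.06 (SE; 95% interval 2.19 to 2.43) was a 4.95-fold rise with an adjusted p of 3.22e-22 by edgeR, and 1.42% of tested genes had a higher one.

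MAFG, the partner most often named for NRF2, was at 18.0, 18.2 and 18.2 TPM in DMSO and at 64.6, 54.0 and 69.0 TPM in Myrrh. The DMSO libraries were almost equal, the Myrrh libraries more spread, and the groups did not overlap. MAFG rose by 1.72 ± 0.06 on the log2 scale (SE; 95% interval 1.60 to 1.84), 3.3-fold, with an adjusted p of 2.76e-19 by edgeR. MAFK was at 20.4, 20.3 and 19.3 TPM in DMSO and at 28.5, 26.6 and 27.2 TPM in Myrrh. The Myrrh libraries lay above the DMSO libraries, by a margin much smaller than for MAFF and MAFG. MAFK rose by 0.44 ± 0.06 (SE; 95% interval 0.33 to 0.56), with an adjusted p of 6.01e-08 by edgeR. The intervals of the 3 log2 fold changes did not overlap.

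In DMSO, MAFK held the largest part of the small MAF sum, 35.7% to 37.5%, and MAFF the smallest, 28.8% to 30.5%. In Myrrh the order was turned round, with MAFF at 46.7% to 48.5% and MAFK at 14.8% to 17%. MAFG kept the middle place, at 32.9% to 33.8% and then 34.5% to 37.6%. Of the large MAF genes, which carry an activation domain, MAF had no counts in any library.

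BACH1 was the lowest of the 8 per length in DMSO, at 13.6, 14.2 and 15.1 TPM, and reached 30.4, 25.8 and 29.8 TPM in Myrrh. The groups did not overlap. BACH1 rose by 0.95 ± 0.05 (SE; 95% interval 0.84 to 1.07), with an adjusted p of 1.14e-14 by edgeR. With the mRNAs of activator and repressor both higher, their TPM ratio, NFE2L2 to BACH1, was 4.86 to 5.65 in DMSO and 6.01 to 6.09 in Myrrh. The related repressor gene BACH2 had 44.9 estimated counts over all 6 libraries and was not tested.

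KEAP1 had 33.9, 34.2 and 42.7 TPM in DMSO and 37.3, 43.1 and 42.2 TPM in Myrrh, so that the third DMSO library lay within the Myrrh range. In CPM the groups were apart, at 38.7, 37.7 and 43.2 in DMSO and 45.3, 49.8 and 51.9 in Myrrh. CPM was apart in this way for 8 of the 8 genes, against 80.2% of all genes tested, and TPM for 7 of the 8, against 75.4%. KEAP1 had a log2 fold change of 0.30 ± 0.07 (SE) in counts, with an adjusted p of 0.00021 by edgeR. On the authors' log2(TPM + 1) values it was 0.15, with an adjusted p of 0.2 by limma, a test that called 7 of the 8 genes and 72.4% of all genes. The TPM ratio of NFE2L2 to KEAP1 was 1.72 to 2.26 in DMSO and 3.65 to 4.93 in Myrrh.

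The difference between the scales for KEAP1 can be followed in the files, because RSEM, the program that made the estimates, divides a gene's counts by a length averaged over its transcripts. Counts divided by TPM, set against the median of 11600 genes in each library, give that length in relative terms. For KEAP1 it was 15.5% longer in Myrrh than in DMSO, and 14.9% of genes differed by at least as much. For NFE2L2 it was 9.5% longer, a size that 27.2% of genes reached. The groups did not overlap for 4 of the 8 genes (KEAP1, NFE2L2, MAFF and MAFK), against 49.2% of all genes compared. For KEAP1 the nearest libraries of the groups were both at 0.08 on the log2 scale, to the 2 decimals given. For BACH1, NFE2L1, MAFF and MAFG the change was below 2%, for MAFK it was 3.48% and for NFE2L3 it was -2.43%. Which transcripts were involved was not analysed here.

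**Figure D3:**
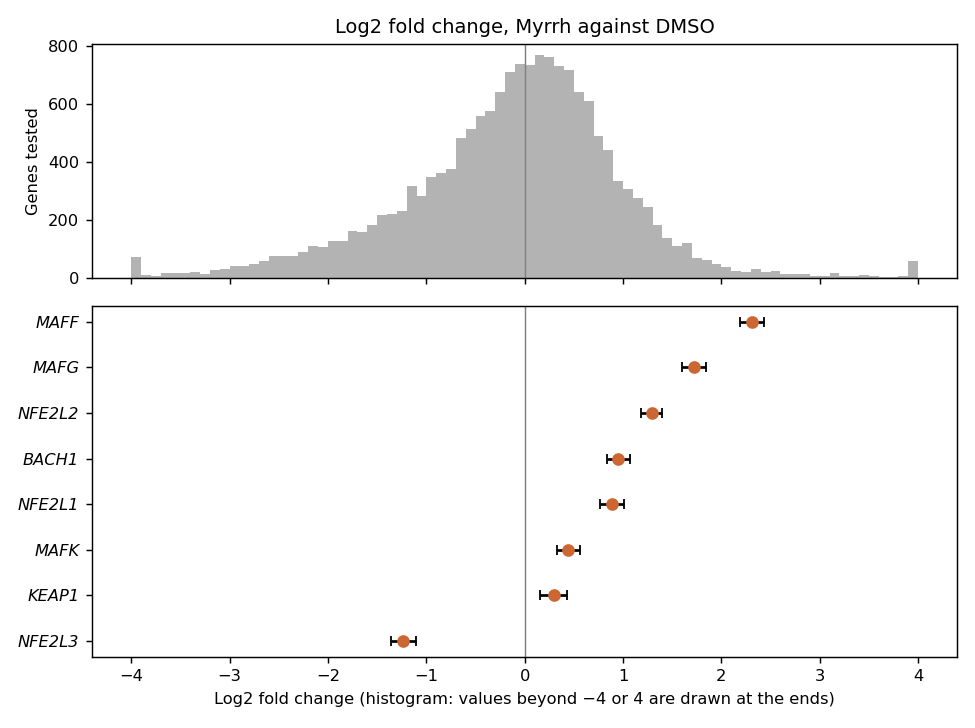
Log2 fold change of the 8 regulators with 95% intervals (lower panel, edgeR) on the same horizontal axis as the histogram of all 16395 genes tested (upper panel, number of genes). MAFF at 2.31 and MAFG at 1.72 lie in the upper tail of all genes, while KEAP1 at 0.30 and MAFK at 0.44 lie within its bulk.

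Ranked per length in DMSO, NFE2L2 came first and NFE2L1 second, KEAP1 and NFE2L3 followed with overlapping ranges, and then came MAFK, MAFG, MAFF and BACH1 with ranges that did not overlap. In Myrrh the order was NFE2L2, NFE2L1, MAFF, MAFG and KEAP1, then BACH1 and MAFK with overlapping ranges, and NFE2L3 last. The second Myrrh library had the lowest CPM of its group for 4 of the 8 genes, against 36.5% of all tested genes. It had the lowest TPM of its group for 6 of the 8, and for TPM the share over all genes was not computed. Without that library the log2 fold change was 0.95 for NFE2L1, 1.33 for NFE2L2, 1.0 for BACH1 and 1.78 for MAFG. The third Myrrh library had the highest CPM of its group for 7 of the 8 genes, against 33.6% of all tested genes. Without it the values were 0.85 for NFE2L1, 1.28 for NFE2L2, 0.94 for BACH1, 1.67 for MAFG and 2.27 for MAFF.

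In GRCh38, with the gene annotation GENCODE 29, NFE2L2 lies on chromosome 2 at 177227595 to 177392697 on the minus strand, and its longest coding transcript has 5 exons. NFE2L1 lies on chromosome 17 at 48048329 to 48061487, and MAFG on the same chromosome at 81918270 to 81927714. Chromosome 7 holds MAFK at 1530714 to 1543043 and NFE2L3 at 26152240 to 26187125. KEAP1 is on chromosome 19 at 10486120 to 10503741, BACH1 on chromosome 21 at 29194071 to 29630751 and MAFF on chromosome 22 at 38200767 to 38216511. The labels do not state whether reads were counted by strand, and reads of overlapping genes may be shared. Exons of MAFK overlap those of TMEM184A on the opposite strand, which had 76.0 to 97.5 counts per DMSO library and 11 to 21 per Myrrh library, while MAFK had 1184 or more in every library. Exons of MAFG overlap those of SIRT7 on the same strand, which was not called (log2 fold change -0.07 ± 0.06, SE). SIRT7 was called lower on library totals (-0.21, adjusted p = 0.00466 by edgeR) and among genes with 5 CPM in 3 libraries (-0.17, adjusted p = 0.0137 by edgeR). MAFG-DT, a noncoding gene that starts 115 bases from MAFG on the other strand, had a log2 fold change of 0.33 ± 0.12 (SE; adjusted p = 0.014 by edgeR and 0.0513 by DESeq2). Its call was kept in only 8 of 15 alternatives, with values of 0.19 to 0.41. Exons of NFE2L2 overlap those of AGPS on the opposite strand, which rose by 0.40 ± 0.05 in counts and by 0.93 on log2(TPM + 1). They also overlap those of AC019080.1 on the same strand, which had 135 to 189 counts per library and was not called (-0.11 ± 0.11; -0.26 on library totals, adjusted p = 0.0477 by edgeR). The counts of NFE2L2 and MAFK were not whole numbers in 6 of 6 libraries and those of MAFG in 5; RSEM shares out reads that map to more than one gene.

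The DNA before the start sites is shown for MAFF and MAFG, which rose most of the 8, and for BACH1 and KEAP1, the other genes with a match to a stress motif searched. RefSeq windows of 250 bases before to 50 after a start were at hand for 7 of the 8 genes, 13 windows in all (GRCh38.p14). Both strands were searched for the core of the antioxidant response element TGACNNNGC, the AP-1 site TGANTCA, the cAMP response element TGACGTCA, which contains the first letters of the core, the E-box CACGTG, a C/EBP-ATF element TGATGNAA, an extended MAF site (TGC followed at once by TGANTCA, and so holding the AP-1 site) and a heat shock element (GAANNTTC followed at once by NNGAA). Capitals mark the matches, and sequences read 5′ to 3′ on the strand of the gene. The stretches of MAFF and KEAP1, and most of that of BACH1, also lie within exons of other annotated transcripts of the same gene.
MAFF, chr22:38201788-38201813, plus strand, E-box: cgcgaggtgtCACGTGaacgcaccca
MAFF, chr22:38201862-38201890, plus strand, antioxidant core on the reverse strand: cttccaggggGCGGGGTCAtacgggggcg
MAFF, chr22:38201930-38201957, plus strand, cAMP response element: gccgggtcggTGACGTCAccgcatgact
MAFF, chr22:38202929-38202954, plus strand, E-box before a second start: gggcctccgcCACGTGaccccagtgt
MAFG, chr17:81927736-81927795, minus strand, E-box: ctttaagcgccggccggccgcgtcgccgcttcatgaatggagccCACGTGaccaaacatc
BACH1, chr21:29298864-29298890, plus strand, AP-1 site: gcggaaggagTGAGTCAcctgaccgct
KEAP1, chr19:10502807-10502835, minus strand, antioxidant core: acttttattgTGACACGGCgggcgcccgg

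The antioxidant core was present in 2 of the 13 windows, of MAFF and KEAP1, where KEAP1 had a second match on the reverse strand, GCTTAGTCA. The same letters occur in 13.3% of all 35116 RefSeq windows of this length. The E-box stood in 3 of the 13 windows, of MAFF and MAFG, and is found in 7.26% of all windows. The AP-1 site, found in 7.71% of all windows, stood 48 bases before a start of BACH1, and the cAMP response element, found in 1.85%, 54 bases before a start of MAFF. The C/EBP-ATF letters, found in 3.62% of all windows, the extended MAF site, found in 0.416%, and the heat shock element, found in 0.49%, were in none of the 13 windows. None of the searched letters was in the windows of NFE2L1, NFE2L2 and NFE2L3. A match describes the letters of a window and is not evidence of binding.

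Around the regulators, the genes of NRF2 turnover changed in both directions. Here and in the lists below, counts are to be read against all genes tested, of which 39.3% were called higher and 39.1% lower. The lists too were chosen with earlier results of these data known. Of 15 ubiquitin ligase subunits and kinases, 8 rose and 2 fell, with a median log2 fold change of 0.21. Scaled to library totals alone, 5 rose and 4 fell. CUL3, the scaffold that KEAP1 recruits, was at 53.1 ± 2.03 TPM in DMSO and 49.3 ± 3.25 TPM in Myrrh (SD, n = 3; log2 fold change -0.01 ± 0.06, SE), and its value on library totals was -0.15, with an adjusted p of 0.0233 by edgeR. RBX1, the RING subunit of cullin ligases, fell by 1.3 ± 0.06 and CUL4B, a scaffold of other ligases, by 0.51 ± 0.05. SYVN1, the ligase HRD1 of the endoplasmic reticulum, rose by 1.28 ± 0.05 and TRIM25, a ligase of the TRIM family, by 0.88 ± 0.05.

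Of 11 proteins known to bind KEAP1, 5 rose (45.5%) and 4 fell, with a median of 0.17. These counts are near the shares over all genes tested, 39.3% higher and 39.1% lower. Over the alternatives described below, 3 to 6 rose and 3 to 5 fell. SQSTM1, the autophagy receptor p62 that can draw KEAP1 away from NRF2, rose by 2.76 ± 0.06, from 293 ± 6.52 to 2072 ± 109 TPM (n = 3). NFKBIB, an inhibitor of NF-kB, rose by 1.90 ± 0.06. PTMA, prothymosin alpha, fell by 1.06 ± 0.06 and the replication factor MCM3 by 0.88 ± 0.05.

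NRF1 is cut free from the endoplasmic reticulum by a set of enzymes, and of 12 genes for its maturation and turnover 10 rose and 2 fell, with a median of 0.78. SEL1L, the partner of SYVN1 in removal of proteins from the endoplasmic reticulum, rose by 1.50 ± 0.05. OGT, an enzyme that attaches N-acetylglucosamine, fell by 0.90 ± 0.06 and its partner HCFC1 by 0.34 ± 0.06. The proteasome genes, which NRF1 is known to drive, rose in 30 of 31 cases (median 0.85), led by the regulatory subunit genes PSMD11 at 1.55 ± 0.05 and PSMD14 at 1.53 ± 0.06. Of 11 coactivators and corepressors of NRF2, 5 rose (45.5%, against 39.3% of all genes tested) and 2 fell (median 0.02), and on library totals 5 fell. ATF4, a stress factor that can join NRF2, rose by 0.96 ± 0.06 and the acetyltransferase gene CREBBP by 0.45 ± 0.05, while the chromatin remodellers CHD6 and SMARCA4 fell by 0.39 ± 0.05 and 0.27 ± 0.05. CHD6 was at -0.12 on log2(TPM + 1) and was not called there (adjusted p = 0.323 by limma).

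**Figure D4:**
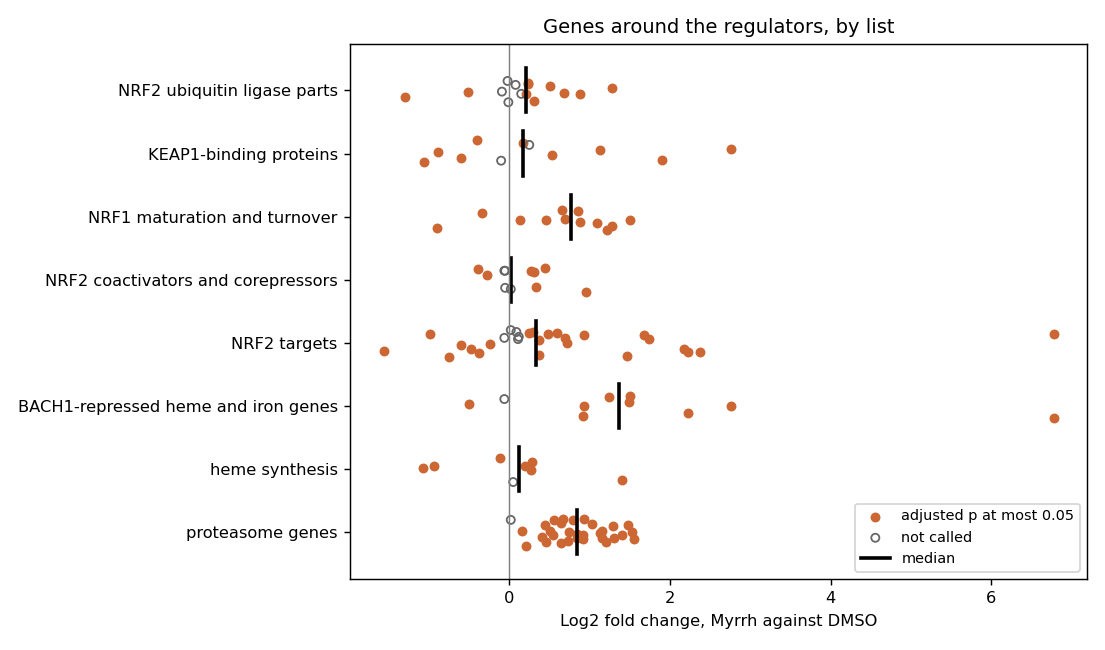
Log2 fold change (horizontal axis) of the tested genes in 8 lists around the regulators; filled points passed an adjusted p of 0.05 by edgeR, open points did not, and black bars are medians. The proteasome genes lie almost wholly above 0, and HMOX1 at 6.78 stands far from the others in both lists that hold it.

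Among 28 tested NRF2 targets, 16 rose and 7 fell, with a median of 0.33, and they differed widely. HMOX1, heme oxygenase, rose by 6.78 ± 0.07 and SRXN1, which repairs oxidised peroxiredoxins, by 2.38 ± 0.06. GCLM, the modifier subunit of glutathione synthesis, rose by 2.22 ± 0.05 and TXNRD1, thioredoxin reductase, by 0.93 ± 0.06. NQO1, a quinone reductase often used as a readout of NRF2, was already at 1718 ± 18.0 TPM in DMSO and stood at 1830 ± 42.8 TPM in Myrrh (n = 3), with a log2 fold change of -0.06 ± 0.06 (SE; adjusted p = 0.35 by edgeR). NQO1 depended on the scale, with a value of 0.09 on log2(TPM + 1) (adjusted p = 0.0648 by limma), -0.20 on library totals (adjusted p = 0.000586 by edgeR) and -0.11 without the second Myrrh library (adjusted p = 0.022 by edgeR). The exporter gene ABCC3 fell by 1.56 ± 0.05 and the reductase gene AKR1B10 by 0.75 ± 0.07.

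Of 10 tested genes that BACH1 is known to repress, 8 rose and 1 fell, with a median of 1.37, beside the rise of BACH1 mRNA itself. In the alternatives, 2 fell without the second Myrrh library, on library totals and among genes with 5 CPM in 3 libraries. Tested for a log2 change beyond 0.5, 8 rose and 0 fell. HMOX1 and SQSTM1 had the highest values, and the iron exporter gene SLC40A1 fell by 0.50 ± 0.09. HMOX1, GCLM, TXNRD1, NQO1 and ME1 (not tested) stand in both lists, SQSTM1 also among the KEAP1-binding proteins, and SYVN1 in the lists of NRF2 ligases and of NRF1 turnover, so these lists are not separate evidence. Of 8 genes of heme synthesis, the pathway that makes the ligand of BACH1, 4 rose and 3 fell, with a median of 0.13. Over all genes tested, 39.3% were called higher and 39.1% lower. On library totals 1 gene of heme synthesis rose. In most alternatives 2 fell: by DESeq2, by limma, without a filter and in the test for a change beyond 0.5. The same count of 2 was found without any 1 library other than the second Myrrh library. UROD, among the 3 called lower at first, had a log2 fold change of -0.12 ± 0.05 (SE; adjusted p = 0.0447 by edgeR). ALAS1, the first enzyme, rose by 1.40 ± 0.06, while PPOX fell by 1.07 ± 0.08 and ALAD by 0.94 ± 0.06.

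The cells had keratin RNA, with KRT8 at 771 ± 7.03 TPM in DMSO, and the mesenchymal gene VIM at 2048 ± 42.2 TPM (SD, n = 3). Other epithelial markers were also expressed in DMSO, with KRT18 at 661 TPM, MUC1 at 32.6 TPM and KRT19 between them. The remaining epithelial markers were lower than MUC1 in DMSO, among them CDH1 and ESRP1 at 0.133 and 0 TPM. The 10 epithelial markers summed to 1607 to 1643 TPM in DMSO and 1170 to 1276 TPM in Myrrh, and the 10 stromal markers to 5316 to 5515 and 2493 to 2619 TPM. Of the 7 epithelial markers tested, 2 were called higher (EPCAM and KRT7) and 5 lower. EPCAM and KRT7 had few counts, 236 and 387.5 over all libraries, and so had CLDN4 among those called lower, with 601. Of the 10 stromal markers, 2 were called higher (CDH2 and FN1) and 8 lower. Over all genes tested, 39.3% were called higher and 39.1% lower. The 6 leukocyte markers summed to 30.3 to 34.1 and 53.6 to 76.8 TPM, nearly all of it CD68, while PTPRC and CD14 fell (log2 fold changes -2.88 ± 0.61 and -2.28 ± 0.27, SE). Both were near the floor, with 51 counts of PTPRC and 204 of CD14 over all libraries. The TPM of PTPRC overlapped between the groups, at 0.14 to 0.22 in DMSO and 0 to 0.2 in Myrrh. The 6 endothelial markers summed to less than 1 TPM. The leukocyte gene CD3E and the endothelial gene CDH5 had 0 counts in every library. Mitochondrially encoded genes took 14% to 14.7% of counts in DMSO and 6.84% to 8.45% in Myrrh. The part of these shifts in the values of the 8 regulators was not tested.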

How the data were processed

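Total RNA from 12Z cells, 3 libraries labelled DMSO and 3 labelled Myrrh, was sequenced. Reads were processed with STAR and RSEM 1.3.1, per the submitters' processing notes; the labels give neither the strand setting nor the annotation release. The authors deposited RSEM estimated counts, of which 11.1% to 12.2% per library were not whole, and log2(TPM + 1) values, from which TPM was recovered by undoing the log2.

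Estimated counts were rounded and tested with edgeR 4.0.16 (R 4.3.3; filterByExpr, TMM, robust quasi-likelihood test without block, Benjamini-Hochberg adjustment, threshold 0.05). Scripts were tested on simulated data. The alternatives used DESeq2 1.42.0, limma 3.58.1, other scalings and filters, a replicate block and leaving out each library. Fold changes on log2(TPM + 1) understate those of low genes. SE are those of the edgeR fit, and depth of 615 or more estimated counts for each regulator in each library set the counting error. No libraries of a group agreed within sampling noise (chi-square per degree of freedom 3.85 to 9.19). The regulators and the gene lists were chosen with earlier results of these data known. Beside the 8 regulators, the text names of each list up to 2 called genes with the highest and 2 with the lowest log2 fold change at a mean of at least 5 CPM, 6 genes whatever their values (HMOX1, NQO1, GCLM, TXNRD1, SQSTM1 and CUL3), neighbouring genes in GENCODE 29, and the 3 genes with the most similar log2 CPM profile to each regulator. Promoter sequences and motif counts are from RefSeq windows. Some genes that this rule covers are not reported here.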

Additional observations from a re-analysis of the deposited data

How the results depend on the processing

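None of the 15 alternatives turned the direction of any of the 8 regulators, and 116 of 120 calls of single regulators stayed on the same side of the threshold. KEAP1 lost its call on the authors' log2(TPM + 1) values (0.15, adjusted p = 0.2 by limma), on log2(TPM + 0.1) (0.15, adjusted p = 0.201 by limma) and when edgeR tested for a log2 change beyond 0.5 (0.30, adjusted p = 1). In that last test MAFK also lost its call (0.44, adjusted p = 0.902), 6 of the 8 stayed called, and 7483 genes were called in all. Genes called with at least a 2-fold change, 4814 at first, were 2783 when genes needed 5 CPM in 3 libraries and 2933 on log2(TPM + 1). Leaving out 1 library at a time gave 12362 to 12893 called genes, and KEAP1 values of 0.25 to 0.36. Scaling to library totals alone moved the median of all genes to -0.16 and the share of calls that were higher from 50.1% to 41.8%, with 7 of the 8 regulators still higher; without a filter the median was -0.12. Libraries of like numbers had correlations of deviations of -0.0596, -0.00454 and 0.0361, and those of unlike numbers -0.0928 to 0.102. These values show no pairing of the libraries but cannot exclude a weak one. With the replicate block 6390 genes were called higher and 6392 lower, with KEAP1 at 0.30. Of 240 counts in the gene lists 220 stayed within 1.5 times, and of 581 values of 39 other genes (those of the lists and neighbouring loci named with a test, without the cell markers) 558 kept their call and none was reversed. The cause of these changes was not tested.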

Other observations

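The genes most like each regulator were sought among 11367 genes by the root mean square difference of centred log2 CPM over the 6 libraries, a description of profiles that mostly share the step between the groups. For MAFF they were ITPRIP (0.029), POR (0.041) and PWWP2B (0.051), and for MAFG they were CTSD (0.036), ATG101 (0.046) and ORC5 (0.049). For NFE2L2 they were STT3A (0.032), PELO (0.033) and TNFRSF8 (0.036), and for NFE2L1 they were BRPF1 (0.021), EPAS1 (0.021) and DVL2 (0.022). For NFE2L3 they were DDHD2 (0.013), CCDC191 (0.023) and CFI (0.030), and for BACH1 they were CLTC (0.028), LAP3 (0.030) and KDM5A (0.032). KEAP1 was nearest to RPSA (0.013), NUAK1 (0.033) and PHF23 (0.034), and MAFK to TIMM50, C5orf34 and MAD2L2, each at 0.025.

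Genes in or beside the regulators' loci had values of their own. BACH1-IT1, a transcript within an intron of BACH1, had 2 to 6 counts per DMSO library and 13 to 16 per Myrrh library (log2 fold change 2.20 ± 0.47, SE; adjusted p = 0.000128 by edgeR), and a value of 2.81 without the first DMSO library and 0.87 on log2(TPM + 1). AC004477.1, which starts 256 bases from NFE2L1 on the other strand, had 43 to 54 and 17 to 23 counts (log2 fold change -1.12 ± 0.26, and -0.55 on log2(TPM + 1)). PLA2G6, a phospholipase gene that overlaps the body of MAFF on the opposite strand without shared exons, fell by 1.34 ± 0.13 while MAFF rose. HNRNPA2B1, a splicing factor gene that overlaps the body of NFE2L3 on the opposite strand without shared exons, fell by 0.76 ± 0.06.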
